A study of Homo sapiens with 9 samples.

Results

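The data described here are the expression levels of untreated HSF-6(8) cells, human embryonic stem cells of a line the labels call HSF6-8, on 3 of the 9 arrays of the study. The members are the 3 arrays titled HSF-6 (8) control, numbered 1 to 3 here in the order of the prime marks in their titles. They were grouped by title, but they and the gene lists below were chosen with earlier results of these data known. The remaining 6 arrays hold HSF-6(8) and HSF-6(S9) cells given butyrate, an inhibitor of histone deacetylases, together with DZNep (3-deazaneplanocin A), an inhibitor of S-adenosylhomocysteine hydrolase. The control cells received neither compound, and the labels give 6 days of growth and 11 passages for every group. Whether the 3 arrays come from separate cultures, whether HSF-6(8) is 1 clone and whether feeder cells were present is not stated in the labels, so the spread between arrays may be technical.

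Embryonic stem cells come from the inner cell mass of the blastocyst and can both renew themselves and form all cell types of the body. A small network of transcription factors holds this state, and POU5F1, SOX2 and NANOG form its core. Human lines resemble the epiblast just before gastrulation (the primed state) and depend on Nodal or activin and on fibroblast growth factor (FGF) signals. They divide quickly, lean on glycolysis and carry high levels of the de novo DNA methyltransferase DNMT3B.

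Each value is a MAS5 signal, the deposited brightness of a probe set (a group of short probes to 1 transcript) on a linear scale. Of 54613 non-control probe sets, 41091 map to a single gene, and these stand for 19775 genes. A gene was represented by its probe set with the highest mean, a choice that favours high values and is examined at the end. Levels are given as multiples of the median non-control probe set of the same array, averaged over the 3 arrays on the log2 scale. The array medians were 71.6, 64.8 and 71.5. A gene was called abundant at 16 or more times the median, which is a signal of about 1036 to 1146. It was moderate from 4 to 16 times, low from 2 to 4 times, near the median within 2-fold of it and below the median under that. Signals of different probe sets also differ in how well their probes bind, so the order of genes is an order of probe sets and not of transcript numbers. In a culture, fewer cells that carry a transcript and less of it in each cell cannot be told apart.

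By this measure 5341 genes (27.0%) were abundant, 4209 (21.3%) moderate, 1456 (7.36%) low, 3621 (18.3%) near the median and 5148 (26.0%) below it. Over single probe sets 17.4% were abundant and 33.2% below the median. The bands have no natural gaps between them. At the upper limit ZBTB11 lay just inside the abundant band and GSR just outside, with mean signals of 1112 and 1121. At the next limit CCDC102A and SLC27A2 lay on either side of 4 times the median, and C22orf46P and ACTG1P17 on either side of 2 times. KRT2 and MC3R stood on either side of the lowest limit. The 5 genes of the middle ranks were OSBPL5, IFI16, TM6SF2, UPK1A and LAMC3, and the middle one, TM6SF2, had 3.40 times the array median.

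The olfactory receptors give a reference for probe sets of genes that are used in the nose. None of the 82 was abundant or moderate, 1 was low, 20 were near the median and 61 below it. Their median signal was 24.9 and their 95th percentile was 1.04 times the array median. The highest was OR1I1, at 158, 124 and 169 on arrays 1, 2 and 3. Levels near the array median thus lay within the upper range of this family, and no detection calls were used here to separate them. Of all 19775 genes, 12547 lay above the 95th percentile of the olfactory receptors.

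The 4 defining markers of the label were abundant on every array. LIN28A encodes an RNA-binding protein that blocks maturation of the let-7 microRNAs. Its signal was 35481, 27843 and 21802 on arrays 1, 2 and 3, a mean of 28375 ± 6855 (SD, n = 3) and 402 times the median. DNMT3B, the de novo DNA methyltransferase, gave 30575, 24011 and 20458, or 356 times the median. SOX2, the partner of POU5F1 on DNA, gave 27005, 23263 and 20145, or 337 times. NANOG, a homeobox factor, gave 8647, 9070 and 8598, a mean of 8772 ± 259.9 (SD, n = 3) and 127 times the median. LIN28A held rank 82, DNMT3B 97, SOX2 111 and NANOG 543 of 19775. NANOG was the most even of the 4 over the arrays, with a range of 1.17-fold, while LIN28A, DNMT3B and SOX2 were highest on array 1 and lowest on array 3, with ranges of 1.63-, 1.49- and 1.34-fold after division by the array median. POU5F1 has no single-gene probe set here and is not described.

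**Figure D1:**
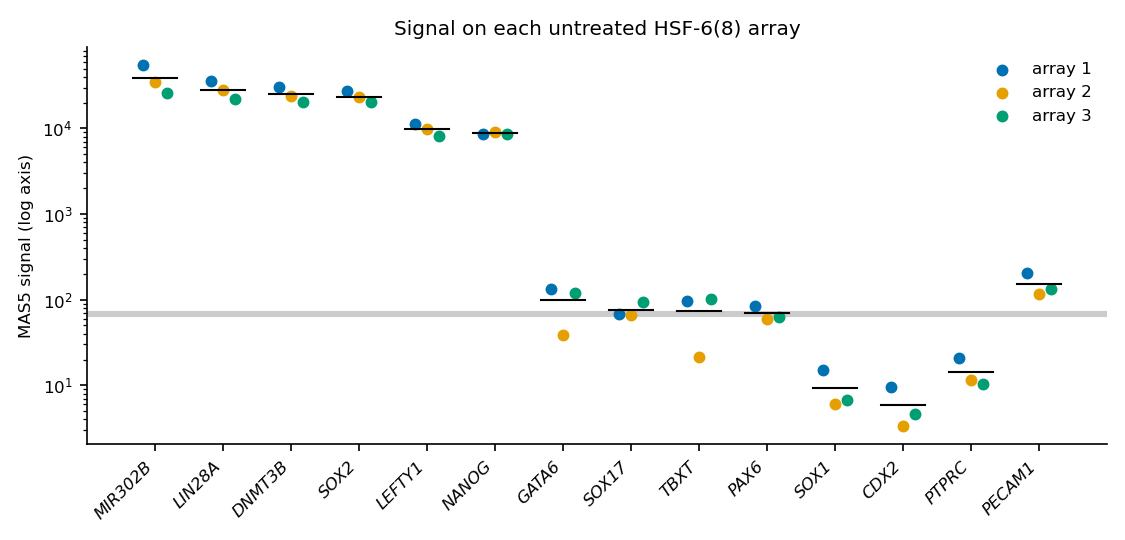
MAS5 signal (log axis) of 14 genes on each untreated HSF-6(8) array, with a line at the mean of the 3 arrays and a grey band over the range of array medians, 64.8 to 71.6. The 6 stem cell genes on the left lie at 8256 or higher on every array. The 8 genes of other lineages on the right lie at 204 or lower. The genes were picked by hand, some after their values were seen. Other markers of these lineages were higher, such as TUBB3, NES, FLT1 and KDR with means of 16871, 5252, 1052 and 802.

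Among transcription factors and RNA-binding regulators of the pluripotent state, 20 of 27 measured genes were abundant, 6 moderate, 1 low and 0 lower. The median member had 69.2 times the array median, against 3.40 times over all genes. DPPA4, a nuclear protein of pluripotent cells, gave 29153, 25109 and 18562, and L1TD1, an RNA-binding protein derived from a LINE-1 element, gave 23719, 20649 and 20374. The lowest were HESX1, a homeobox gene of the forebrain and pituitary, at 234, 255 and 408, and SOX3, a neural relative of SOX2, at 122, 296 and 321. Both were lowest on array 1, and without array 3 HESX1 fell in the low band.

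Surface and secreted markers stood as high, with 17 of 20 abundant and a median of 65.6 times. CD24, a small surface sialoglycoprotein, had 60917, 40613 and 32404. PODXL, a sialomucin that carries epitopes used to identify human stem cells, had 27438, 22830 and 17306. The heparan sulfate proteoglycan gene GPC4 had 17956, 16188 and 12290, and CDH1, which encodes E-cadherin, had 12821, 12252 and 9236. Each of these 4 signals was lowest on array 3. Of the other 3 genes, GDF3 was moderate, DPPA5 low and CYTL1, a secreted cytokine-like protein named after its values were seen, below the median with a mean of 25.5 and 0.336 times the median.

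Markers of the naive state, an earlier form of pluripotency, lay lower as a set. Of 12 measured, 2 were abundant, 0 moderate, 3 low and 7 near or below the median, and the median member had 1.75 times the array median. The 2 abundant members were TFAP2C, an AP-2 transcription factor, at 4438, 3733 and 3368, and KLF4, a Krüppel-like factor, at 1451, 1958 and 2215. DPPA5 and NLRP7, an oocyte and early embryo gene, were low at 251, 231 and 193 and 209, 176 and 259. KLF17 (86.8, 35.0 and 44.4) and the meiotic gene HORMAD1 (4.61, 34.0 and 5.01) were near and below the median, within the range of the olfactory receptors.

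The miR-302 cluster was among the 100 highest genes. It encodes microRNAs that are processed from a single primary transcript in pluripotent cells. The probe set of MIR302B read 54922, 34966 and 26192 on arrays 1, 2 and 3, a mean of 38694 ± 14723 (SD, n = 3), 533 times the median and rank 41 of 19775. The array measures long RNA, so this is a signal of the primary transcript and not of the mature microRNAs. The mature 3′ arms of the cluster share the same seed, bases 2 to 8, shown in capitals because it sets which messages they bind. Sequences are from RefSeq on GRCh38.p14, 5′ to 3′, and all lie on the minus strand of chromosome 4.
hsa-miR-302b-3p (chr4:112648489-112648511): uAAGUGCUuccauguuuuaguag
hsa-miR-302c-3p (chr4:112648366-112648388): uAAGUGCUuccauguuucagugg
hsa-miR-302a-3p (chr4:112648186-112648208): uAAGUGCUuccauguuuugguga
hsa-miR-302d-3p (chr4:112648006-112648028): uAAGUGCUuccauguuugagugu
The 4 sequences are 23 bases long and differ in their 3′ parts. MIR302A, MIR302C and MIR302D have no single-gene probe set of their own. The array has 17 microRNA genes with a RefSeq mature sequence and a single-gene probe set, of which 2 were abundant, 2 moderate, 1 low and 12 near or below the median. The other abundant one, MIR1244-3, rests on a probe set of the _x_at type, which can bind related transcripts. MIR34A, whose product is induced by p53, was moderate at 280.0, 309.6 and 322, and MIR146A, linked to innate immune signalling, was near the median at 85.2, 34.4 and 31.4. Their main mature arms carry other seeds, again in capitals.
hsa-miR-34a-5p (chr1:9151735-9151756): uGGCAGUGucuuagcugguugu
hsa-miR-146a-5p (chr5:160485372-160485393): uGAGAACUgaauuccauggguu
These microRNA genes, MIR302B among them, were named after their values were seen, so the differences between their signals are a description only.

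The upper end of the ranking was held by the machinery of translation and by transcripts of the mitochondrial genome. Of 7 mitochondrial genes measured, 5 were in the highest 100. The other members, COX3 and ND6, held ranks 1878 and 5269, at 49.4 and 16.3 times the median. Both were named after their values were seen. Of the 25 highest genes, 14 were ribosomal protein genes, as were 47 of the highest 100. COX2, the mitochondrial gene of cytochrome c oxidase subunit II, was at the top with 87428, 48658 and 42728 on arrays 1, 2 and 3. RPS19, a protein of the small ribosomal subunit, followed with 80120, 49017 and 42229, and RPL37A, of the large subunit, with 82441, 46112 and 41646. Array 1 was the highest and array 3 the lowest for all 3. Next came RPS23 (75137, 46202 and 41120), the elongation factor EEF1A1 (74309, 44067 and 43247), the cytoplasmic actin ACTB (75778, 45633 and 39155) and the mitochondrial complex I gene ND4 (75887, 46551 and 38183). The rest of the first 25 were TMSB4X, RPL41, RPS16, RPS10, RPS6, RPL31, TPT1, RPL39, ND2, TUBA1B, NACA, RPL10A, CD24, RPL7, RPL24, COX1, RPLP1 and RPS27, of which TMSB4X had a mean of 52069 and RPS27 of 42561. CD24 was the 1 surface gene among them.

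Of 59 ribosomal protein genes, 53 were abundant, 3 moderate, 1 low and 2 near or below the median, with a median of 505 times the array median. The few dim members included RPL3L, a relative of RPL3 known from striated muscle. It gave 44.4, 82.6 and 8.56 on arrays 1, 2 and 3 and was named after its values were seen. RPLP2 and RPL27A, also named after their values were seen, were moderate at 358, 184 and 400.2 and 411, 247 and 405. RPL27A rests on its only single-gene probe set, and the only other one of RPLP2 was dimmer at 21.9, 39.0 and 59.6. Probe sets that map to several genes were not used, so these levels may be those of poor probe sets. The ribosomal protein values were not even over the arrays. Array 1 was the highest for 49 of 59 and array 3 the lowest for 53 of 59, and the median member deviated from its own mean by 0.39 on array 1, -0.02 on array 2 and -0.36 on array 3 (log2).

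Many of these promoters hold a string that the ranking did not use. Ribosomal protein genes start at a pyrimidine tract, the TCT initiator, whose core reads CTTTC or CTTTT. RefSeq promoters of 300 bases, 250 before and 50 after the first listed start on GRCh38.p14, were found for 51 of the ribosomal protein genes. In the 22 bases from 10 before to 12 after the start, on the strand of the gene, 29 of 51 (56.9%) held CTTTC or CTTTT, against 5.91% of 27195 promoters. Over the 15360 promoters of measured genes the share was 5.46%. The string was in 26 of the 47 abundant ribosomal protein genes (55.3%) and in 3 of the 4 others. Abundant genes other than ribosomal proteins had it in 5.13% of 4507. Of 15 translation factor promoters 5 held it, of 19 glycolysis promoters 0. These 5-base strings and the window were settled after 5 forms had been tried, so the share is a description. The windows around the start of the 4 highest ribosomal protein genes are shown with the match in capitals.
RPS19 (chr19:41860225-41860286, plus strand): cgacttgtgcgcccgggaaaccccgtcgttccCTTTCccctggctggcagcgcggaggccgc
RPL37A (chr2:216498814-216498875, plus strand): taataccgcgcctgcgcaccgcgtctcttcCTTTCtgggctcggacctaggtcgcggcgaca
RPS23 (chr5:82278323-82278384, minus strand): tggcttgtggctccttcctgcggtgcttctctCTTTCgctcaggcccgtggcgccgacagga
RPL41 (chr12:56116603-56116664, plus strand): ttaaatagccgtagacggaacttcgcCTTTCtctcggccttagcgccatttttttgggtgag
Each window runs from 30 bases before to 32 bases after the listed start, and each holds 1 match.

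Housekeeping systems were abundant almost throughout. All 23 measured splicing factors, all 20 chaperones and all 19 cytoskeletal genes of the lists were abundant, with medians of 174, 185 and 208 times the array median. Of 20 glycolytic genes 19 were abundant, of 42 proteasome subunits 38, of 83 subunits of the respiratory chain and ATP synthase 74, and of 19 translation factors 18. GAPDH, the glycolytic dehydrogenase, gave 50200, 30742 and 25693, and the lactate dehydrogenase genes LDHB and LDHA gave 43382, 30856 and 29078 and 25322, 20757 and 16922. HSPD1, the mitochondrial chaperonin, gave 42237, 35685 and 34248, and the cytosolic chaperone HSP90AB1 gave 34301, 25402 and 24014. HNRNPA2B1, an RNA-binding protein of splicing, was even at 24172, 22822 and 23650, and so was the proteasome subunit PSMB1 at 20218, 19021 and 18889. EIF4A2, an RNA helicase of translation initiation named after its values were seen, was below the median at 26.5, 16.2 and 17.6, and its only single-gene probe set is of the _a_at type. Glycolysis moved with the arrays like the ribosomal proteins did, with array 3 the lowest for 17 of 20 genes, whereas array 3 was the lowest for 13 of 23 splicing factors and for 21 of 42 proteasome subunits. Over all genes array 3 was the lowest for 10245 of 19775.

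Genes of the cell cycle were high. Of 28 replication and mitosis genes 26 were abundant and 2 moderate. The mitotic kinase CDK1 gave 14640, 14251 and 13011, the helicase subunit MCM6 10731, 11330 and 10752, the polymerase clamp PCNA 9977, 9617 and 11548 and thymidylate synthase TYMS 9275, 8124 and 8131. Among the 15 D cyclins and inhibitors, 6 were abundant, 5 moderate, 1 low and 3 near the median. CCND2 stood at 9452, 8956 and 6545, CCND1 at 4435, 4246 and 3905, and CDKN1B, the inhibitor p27, at 3740, 4207 and 3656. The INK4 inhibitors CDKN2D and CDKN2B were near the median, at 59.5, 70.4 and 91.9 and 37.7, 35.3 and 64.7.

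**Figure D2:**
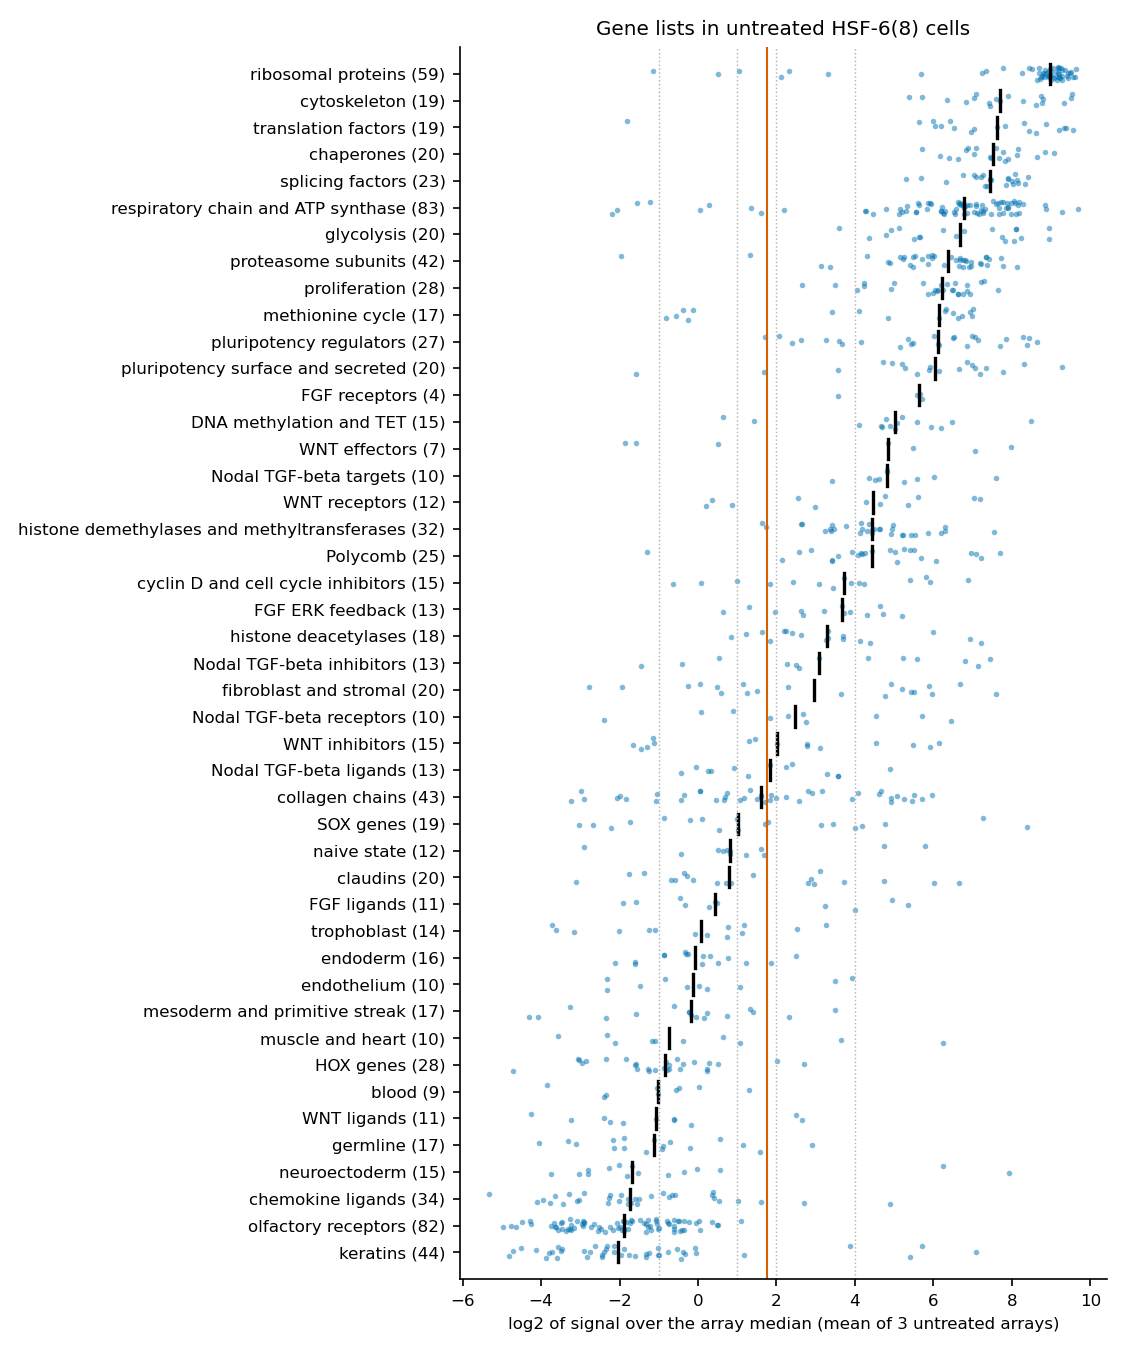
Each point is a gene of a list, placed by log2 of its signal over the array median (mean of the 3 untreated arrays). Black ticks are list medians, the orange line is the median of all genes (1.77), dotted lines are the band limits, and the number of genes is in parentheses. Ribosomal proteins lie at the top with a median of 8.98, while keratins, olfactory receptors and chemokine ligands have medians below -1.

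Signalling genes are given by role. Nodal, a TGF-beta family ligand that acts through activin receptors and SMAD2 or SMAD3, was the 1 abundant ligand of 13, at 2177, 2053 and 1946. GDF3 (898, 869.6 and 708), BMP4 (838, 925 and 708) and BMP7 (916, 676 and 503) were moderate, and the inhibin subunits INHBA (44.8, 44.9 and 147) and INHBB (15.4, 88.5 and 99.0) were near the median. Of 10 receptors and co-receptors 3 were abundant, a share near the 27.0% of all genes: ACVR2B, a type II activin receptor, at 6606, 6397 and 5304, and the type I receptors TGFBR1 at 3489, 3473 and 3943 and ACVR1B at 1711, 1834 and 1318. The other type II activin receptor, ACVR2A, was moderate at 369.9, 531 and 509. BMPR1B was near and CFC1, a co-receptor of Nodal, below the median, with means of 74.5 and 15.1.

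Of 13 inhibitors of Nodal, BMP and other TGF-beta family signals, 6 were abundant (46.2%, against 27.0% of all genes). The secreted Nodal antagonist LEFTY1 gave 11324, 9819 and 8256, the secreted follistatin-like gene FSTL1 13943, 11847 and 10766, and the nuclear co-repressors SKIL and SKI 7054, 9224 and 7046 and 2787, 3699 and 3604. The BMP antagonists CHRD and NOG were near and below the median at 58.8, 47.4 and 50.9 and 34.5, 12.5 and 37.2. Of 10 effectors and targets of the whole family, BMP signals included, 9 were abundant (90%). They were led by ID1, a target of BMP signals that blocks differentiation factors, at 17759, 14082 and 9568. FOXH1, the partner of SMAD2 on DNA, had 5617, 5947 and 2663 and ID2 had 3272, 3487 and 3283. SMAD3 was the 1 moderate member at 834, 794 and 595. FOXH1 and ID1 were lower on array 3 than on the other arrays, while ID2 varied little.

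FGF signals are received by tyrosine kinase receptors and are damped by their own target genes. Of the 4 receptors 3 were abundant at similar signals, FGFR2 with 3803, 4035 and 3076, FGFR1 with 3808, 3588 and 3142 and FGFR3 with 3921, 3363 and 2797, and FGFR4 was moderate at 814, 1026 and 659. All 4 were lowest on array 3. Of 11 ligands 3 were abundant (27.3%, near the 27.0% of all genes), namely FGF13, an intracellular member of the family (2953, 3543 and 2148), FGF2, the factor commonly added to stem cell media (2359, 2325 and 1767), and FGF4 (1279, 1296 and 846). FGF4 lay at the edge of the band, at 16.2 times the median, and was under it on array 3. FGF19 was moderate, FGF8 and FGF10 were below the median with means of 36.2 and 31.2, and 5 ligands were near it. Of 13 feedback and response genes 4 were abundant (30.8%) and 6 moderate. EGR1, an immediate early target, had 3359, 3270 and 1463, with array 3 the lowest. The inhibitors SPRY2, SPRED1 and SPRY4 had means of 1840, 1727 and 1378. FOS, another immediate early gene, was near the median at 154, 154 and 52.6, and in the low band without array 3.

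WNT ligands were dim and their receptors bright. Of 11 ligands 0 were abundant, 2 moderate and 9 near or below the median, with WNT5A at 330.5, 325 and 761, WNT6 at 462, 367 and 344 and WNT11 at 4.77, 2.24 and 4.54. WNT5A was higher on array 3 than on the others. Of 12 receptors 7 were abundant, led by the frizzled genes FZD7 (10688, 10859 and 8755) and FZD5 (9682, 9644 and 8022), and by RYK and the co-receptor LRP6 with means of 3368 and 2817. FZD10 was near the median at 30.2, 70.5 and 242. Of 15 inhibitors 4 were abundant (26.7%) and 5 below the median, against 27.0% and 26.0% of all genes. The secreted frizzled-related genes SFRP1 and SFRP2 gave 5174, 5260 and 4350 and 4636, 4574 and 3435, the kinase GSK3B 3011, 3414 and 2948 and AXIN2, also a target of the pathway, 1481, 1609 and 1703, whereas SFRP4 and DKK4 had means of 28.2 and 23.1. Beta-catenin, CTNNB1, gave 21030, 17952 and 13945. Of its DNA-binding partners, TCF7L2 gave 9654, 10514 and 7598 and TCF7L1, a repressor in stem cells, 3754, 3057 and 2561, but LEF1 gave 17.2, 21.3 and 19.2 and was below the median on all arrays.

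**Figure D3:**
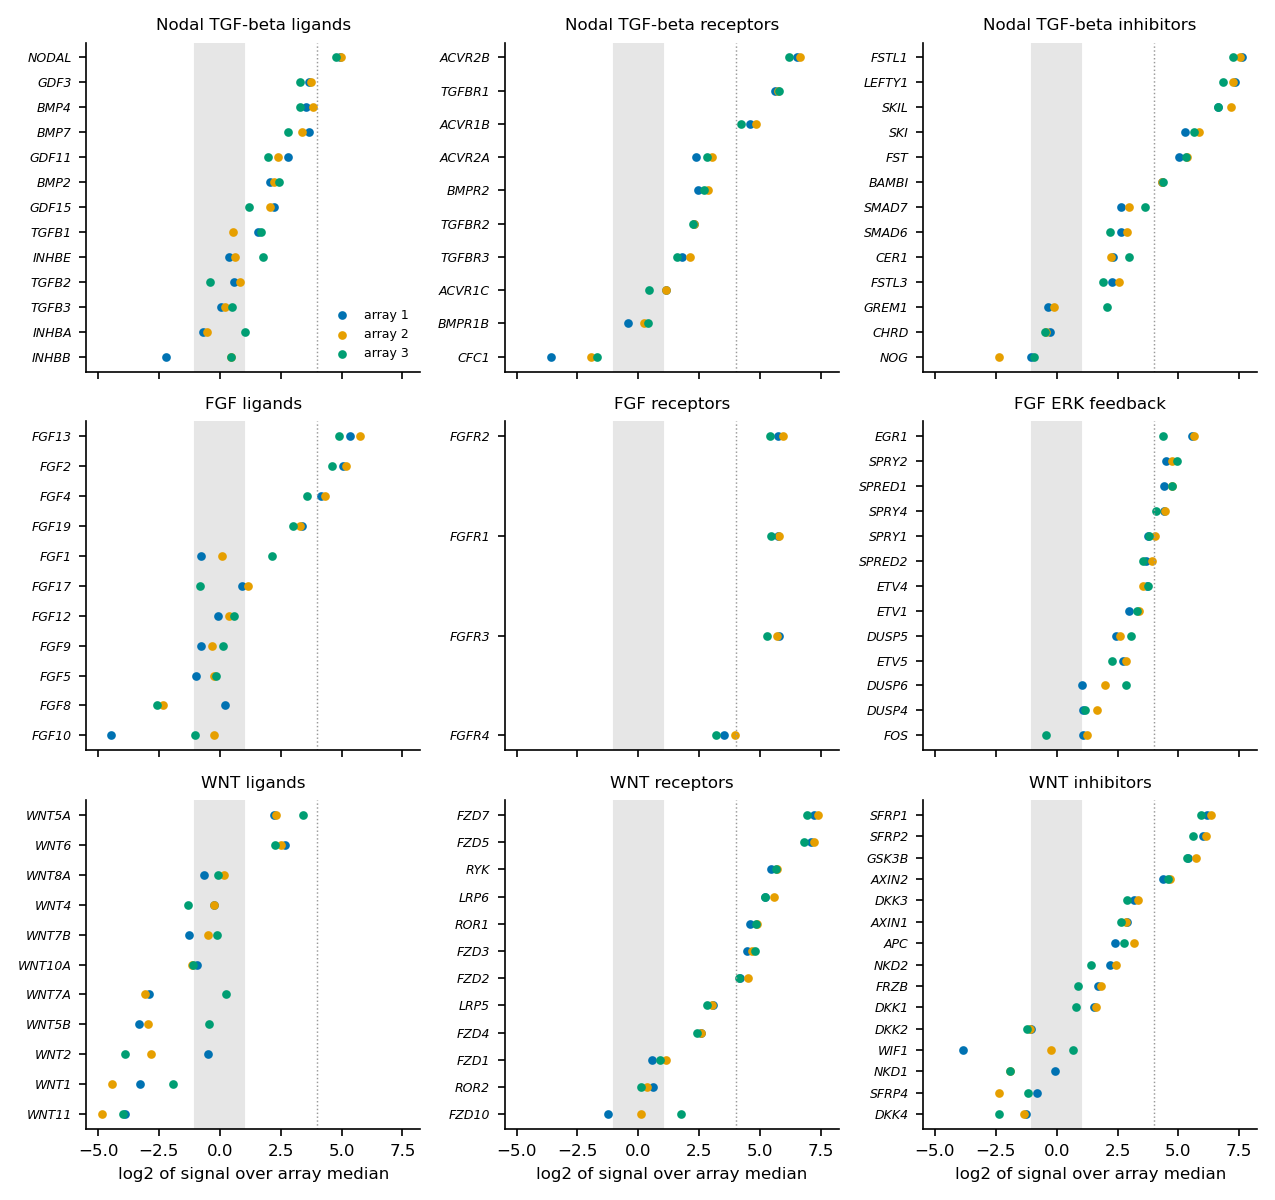
Log2 of signal over the array median for each gene of 9 signalling lists on the 3 untreated arrays (colours). The grey band marks signals within 2-fold of the median and the dotted line 16 times the median. Receptors such as FZD7, FGFR1 and ACVR2B lie to the right of the dotted line on all arrays, while most WNT ligands lie within or left of the grey band.

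Chromatin regulators were mostly abundant or moderate, bands that held 27.0% and 21.3% of all genes. Of 25 Polycomb genes 17 were abundant (68%) and 7 moderate. JARID2, a subunit that guides Polycomb repressive complex 2, gave 15021, 15622 and 12632, the histone-binding subunits RBBP7 and RBBP4 10963, 10463 and 9540 and 11502, 9382 and 7661, and PHC1, of complex 1, 11074, 9017 and 6308. The methyltransferase EZH2, which DZNep lowers as a protein, was just above the limit at 1162, 1015 and 1609, 17.9 times the median, and was named after its values were seen. EZH2 was under the limit on array 2 (1015 against 1036), little over it on array 1 (1162 against 1146) and highest on array 3. YAF2 was below the median at 12.4, 27.7 and 63.2. Of 18 deacetylase and sirtuin genes 5 were abundant (27.8%, near the 27.0% of all genes) and 9 moderate, with HDAC2 at 10589, 10085 and 10134, HDAC1 at 9679, 9021 and 7101 and SIRT1 at 4591, 4453 and 4139. SIRT4, a mitochondrial sirtuin, had the lowest mean of the list, 128.

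Of 15 DNA methylation and TET genes 13 were abundant (86.7%, against 27.0% of all genes). TET1, which oxidises methylated cytosine, gave 7159, 6646 and 4784, DNMT3A 5182, 4785 and 5233 and the maintenance enzyme DNMT1 4020, 4103 and 4718, besides DNMT3B. TET2 was low at 197, 163 and 199, and DNMT3L, a cofactor without catalytic activity that marks the naive state and germ cells, was near the median at 141, 112 and 78.9. Of 32 histone methyltransferases and demethylases 22 were abundant (68.8%). Among them were the arginine methyltransferase PRMT1 at 13922, 12621 and 12212 and the lysine demethylase KDM1A at 5680, 5464 and 4290. SETD1A and KMT5A were low, with means of 232 and 215. Of 17 methionine and folate cycle genes 11 were abundant and 5 near the median, with MTHFD2 at 9034, 8770 and 8756, MTHFD1 at 9317, 7771 and 9290 and the cystathionine synthase CBS at 9830, 8430 and 7314. AHCY, the enzyme that DZNep inhibits, gave 7403, 6830 and 6232 and was named for that reason.

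Markers of differentiated lineages were mostly near or below the array median. The 95th percentile of the olfactory receptors was exceeded by 8 of 16 endoderm, 7 of 17 mesoderm and 7 of 14 trophoblast markers. These are smaller shares than over all genes, where 12547 of 19775 exceeded it. The medians of these lists were 0.954, 0.882 and 1.06 times the array median, against 0.272 for the olfactory receptors and 3.40 for all genes. Of 16 endoderm markers 0 were abundant, 1 moderate and 13 near or below the median, with CER1, a secreted Nodal and BMP antagonist, at 355, 307 and 558 and CXCR4, a chemokine receptor, at 229.9, 287 and 241. The transcription factor genes SOX17 and GATA6 gave 67.2, 65.5 and 93.1 and 135, 38.3 and 121, and albumin, ALB, 22.5, 14.9 and 11.9. Of 17 mesoderm and primitive streak markers 0 were abundant and 13 near or below the median. KDR, a receptor of vascular endothelial growth factor, was moderate at 531, 993 and 881, TBXT (brachyury) was near the median at 95.6, 21.6 and 103, and GSC (goosecoid) was at 4.29, 3.94 and 2.53. Of 14 trophoblast markers 0 were abundant and 10 near or below, with the placental growth factor PGF at 541, 561 and 962, TFAP2A at 485, 523 and 248 and CDX2 at 9.66, 3.34 and 4.61. SOX17, GATA6, TBXT and some genes of the marker plot were picked after their values were seen.

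Neuroectoderm markers divided sharply. TUBB3, a neuronal beta-tubulin, gave 18604, 15881 and 16128 and the intermediate filament gene NES 5624, 5127 and 5005, while the other 13 of 15 were near or below the median. These 13 included the neural transcription factors PAX6 (84.6, 59.0 and 63.4), SOX1 (15.1, 6.13 and 6.67) and NEUROG2 (3.79, 2.93 and 12.2). Array 3 was the lowest for 13 of the 15. The SOX family was spread over all bands, with 4 of 19 abundant (21.1%, against 27.0% of all genes), 3 moderate, 3 low, 5 near and 4 below the median. SOX4 gave 11244, 10496 and 9999 and SOX18 22.6, 2.01 and 28.1. Of 28 HOX genes 0 were abundant, 2 moderate and 26 near or below the median. The 2 were HOXC6 (452, 546 and 371) and HOXB2 (321, 268 and 259). Of 17 germline genes 14 were near or below the median, and DAZL, an RNA-binding protein of germ cells, was the 1 moderate member at 378, 471 and 781.

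Markers of other cells that a culture could hold did not form a single pattern. Of 20 fibroblast and stromal genes 9 were abundant (45%, against 27.0% of all genes), 2 moderate and 3 low. The other 6 were near or below the median, where 8769 of all 19775 genes lay. Vimentin, VIM, gave 13055, 11519 and 15799, the actin-binding gene TAGLN 6233, 5799 and 10038, collagen I, COL1A1, 4461, 4899 and 3789, and SPARC, a matrix glycoprotein, 4239, 4216 and 3787. VIM and TAGLN were higher on array 3 than on the others, and COL1A1 and SPARC lower. At the other end, FAP and the matrix proteoglycan LUM, both typical of fibroblasts, had means of 10.8 and 19.6, and were named after their values were seen. The part of stromal cells in these values was not tested. Of 9 blood genes 8 were near or below the median and HBB was low at 154, 156 and 203, with PTPRC, the leukocyte antigen CD45, at 20.8, 11.5 and 10.3. Of 10 endothelial genes 7 were near or below, and FLT1, another receptor of vascular endothelial growth factor, was the highest at 1002, 1075 and 1080. In the muscle list 1 of 10 was abundant, the cardiac actin ACTC1 at 5143, 5174 and 5588, and 7 were near or below.

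Keratins had few abundant members. Of 44 keratins 3 were abundant (6.82%, against 27.0% of all genes), and 39 were near or below the median. The 3 were the simple epithelial keratins KRT18 (9691, 9088 and 9270), KRT8 (3491, 3540 and 3834) and KRT19 (3241, 3139 and 2439). Of 20 claudins, which seal tight junctions, 3 were abundant (15%) and 11 near or below the median, where 8769 of all 19775 genes lay. CLDN6 (7784, 7402 and 5749) and CLDN7 (3806, 4999 and 4827) were the highest. Of 43 collagen chains 11 were abundant, which at 25.6% is near the 27.0% of all genes, with the basement membrane chains COL4A1 (3490, 3763 and 3597) and COL4A2 (3349, 3482 and 2434) near COL1A1. Of 34 chemokines 30 were near or below the median, and CXCL12, the ligand of CXCR4, was the 1 abundant member at 2372, 2570 and 1401. Of 23 genes matched by the interferon name pattern, 18 were near or below the median. The 5 highest, led by IFNGR2 (4395, 4783 and 3169), encode interferon receptors, which the pattern also takes.

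Larger families spread over all bands. Of 466 ZNF zinc finger genes 84 were abundant and 185 moderate. Over all 19775 genes 27.0% were abundant and 21.3% moderate, so ZNF genes were less often abundant and more often moderate. The median ZNF gene had 5.50 times the array median, against 3.40 times over all genes. ZNF121 (12956, 12192 and 9940) had the highest mean log2 signal of the family. Of 342 solute carriers 72 were abundant (21.1%, against 27.0% of all genes). Another 146 solute carriers were near or below the median, where 8769 of all 19775 genes lay. The highest were the mitochondrial phosphate and ADP/ATP carriers SLC25A3 (31015, 23761 and 20171) and SLC25A5 (24413, 19860 and 18458), then the amino acid transporter SLC38A2 and the glucose transporter SLC2A3, with means of 16087 and 12650.

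Promoters of the bands differed in their CG dinucleotides, the sites of DNA methylation. RefSeq promoters were found for 4554 abundant genes, which had a median of 27 CG per 300 bases (quartiles 20 and 35). Moderate genes also had a median of 27, low genes 24, genes near the median 16 and genes below it 6. The median was 22 over the 15360 promoters of measured genes and 14 over all 27195 promoters. The 60 olfactory receptor promoters had a median of 1.5. TATAAA in the 30 bases from 45 to 16 before the start ran the other way, in 1.36% of abundant and 6.35% of below-median genes. The share was 3.03% over the promoters of measured genes and 2.64% over all promoters. The strings were sought on the strand of the gene, and a match is not a site in use. The promoter of SOX2, with 20 CG, is set against that of OR11A1, a dim olfactory receptor at 7.99, 3.98 and 1.53 with 1, chosen after its values were seen. The CG dinucleotides are in capitals.
SOX2 (chr3:181711675-181711974, plus strand): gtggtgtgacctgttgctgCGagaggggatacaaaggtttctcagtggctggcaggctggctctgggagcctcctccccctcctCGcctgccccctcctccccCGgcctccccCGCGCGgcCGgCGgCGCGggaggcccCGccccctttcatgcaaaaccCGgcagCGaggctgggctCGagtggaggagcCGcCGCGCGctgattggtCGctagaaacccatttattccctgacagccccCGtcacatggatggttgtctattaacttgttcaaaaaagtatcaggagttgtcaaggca
OR11A1 (chr6:29457022-29457321, minus strand): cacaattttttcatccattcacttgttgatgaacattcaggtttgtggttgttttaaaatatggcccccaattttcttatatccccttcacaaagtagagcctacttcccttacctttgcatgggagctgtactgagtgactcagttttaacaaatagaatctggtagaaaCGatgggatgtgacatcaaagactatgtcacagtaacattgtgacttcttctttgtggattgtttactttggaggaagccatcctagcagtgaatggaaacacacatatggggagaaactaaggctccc
Both are printed in full from RefSeq on GRCh38.p14, and LIN28A is not in the table.

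**Figure D4:**
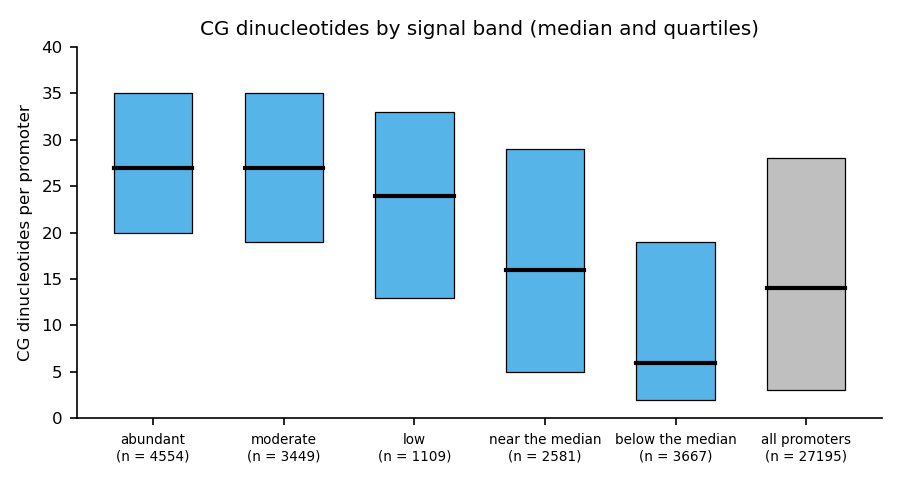
Number of CG dinucleotides in 300-base RefSeq promoters of the genes of each signal band, and of all promoters. Boxes span the quartiles and thick lines are medians, which fall from 27 in the abundant band to 6 below the median. Over the 15360 promoters of measured genes, not drawn, the median is 22.

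The 3 arrays agreed better for bright genes than for dim ones. The median SD of the log2 ratio was 0.20 in the abundant, 0.27 in the moderate, 0.35 in the low, 0.48 in the near-median and 1.05 in the below-median band. A range of 2-fold or more over the arrays was seen in 3.59% of abundant genes and in 80.1% of those below the median. Of the abundant genes 4690 (87.8%) were in that band on each array, and 13267 of 19775 genes kept their band on each array. Over single-gene probe sets, arrays 1 and 2 had a Pearson r of 0.930, arrays 2 and 3 of 0.929 and arrays 1 and 3 of 0.914, across 41091 probe sets that are not independent replicates. No probe set had identical values on any pair.

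**Figure D5:**
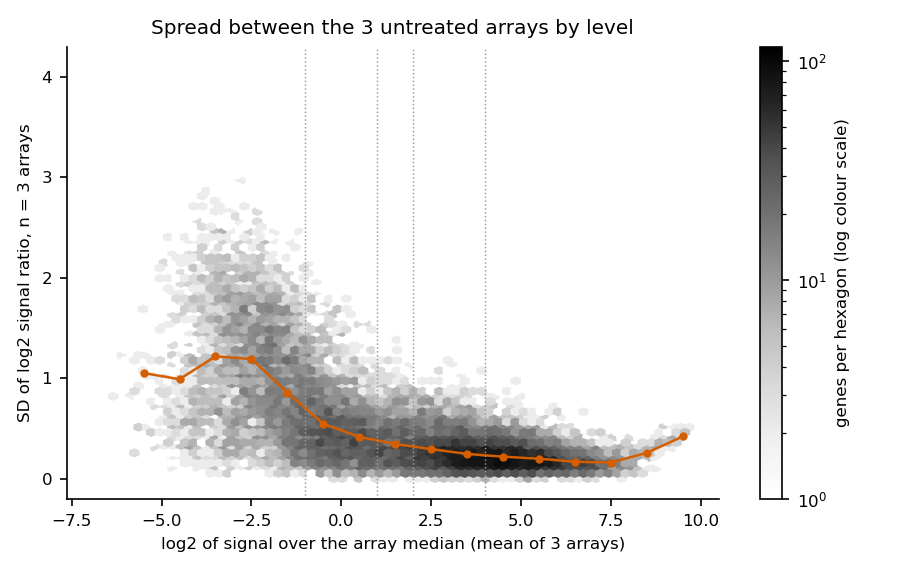
SD over the 3 untreated arrays of the log2 signal ratio against its mean, for single genes (grey hexagons), with medians in steps of 1 (orange) and dotted lines at the band limits. The spread falls from the below-median band (median SD 1.05) to the abundant band (0.20) and widens again at the brightest genes.

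The arrays differed in 2 ways that touch these levels. Spiked bacterial controls were brighter on array 1, with CreX at 58048, 29880 and 21830 on arrays 1, 2 and 3, and the highest signal of the array was 87428, 49017 and 44654. The 18S ribosomal RNA probe set read 542, 436 and 963, and the third array was also the highest in both treated groups, with 443, 477 and 850.2 in HSF-6(8) and 385, 518 and 1517 in HSF-6(S9). The ratio of 3′ to 5′ signal was 1.12, 1.03 and 1.03 for GAPDH and 1.67, 1.31 and 1.18 for ACTB. The part of these differences in the results was not tested. With array 1 left out 91 abundant genes left the band and 103 entered it, with array 2 left out 200 left and 19 entered, and with array 3 left out 66 left and 196 entered.

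Some abundant genes rested on a single array. Of 192 abundant genes with a range of 2-fold or more, array 3 was the highest for 52 and the lowest for 140, so it was at an extreme in all of them. Between arrays 1 and 2 no abundant gene differed by 2-fold. ANXA1, a phospholipid-binding protein, gave 762, 814 and 6716, and SPP1, the matrix protein osteopontin, gave 715, 693 and 4743. Without array 3 they stood at 11.6 and 10.3 times the median, in the moderate band. DLK1, an imprinted gene and inhibitor of Notch signalling, went the other way with 2802, 2795 and 309.9. CCAR1 (1262, 1428 and 8416), RASEF (1617, 2909 and 8770) and the nuclear long non-coding RNA MALAT1 (1941, 3180 and 10523) were higher on array 3 and abundant without it as well. Of the moderate genes, MATR3 (175, 315 and 2270) and STOX2 (204, 366 and 1287) were higher and CLIP3 (825, 739.8 and 111) and N4BP2L1 (507, 529 and 93.3) lower on array 3. Without array 3 MATR3 stood at 3.44 times the median, in the low band.

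PRDM14, a factor of the pluripotency list that was named after its values were seen, also moved with array 3. It read 744, 746 and 3471, and its level without array 3 was 10.9 times the median, in the moderate band. SOX2 has 4 single-gene probe sets, and they did not move together. The brightest fell from 27005 on array 1 to 20145 on array 3, whereas the next read 2034, 2061 and 6048. A further SOX2 probe set read 283, 350 and 1072, and the dimmest 52.9, 66.5 and 110.0.

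The choice of probe set set the size of the abundant band. Of the 5341 abundant genes 3705 had several single-gene probe sets, and for 1670 of these (45.1%) the lowest probe set was under the array median. In only 495 was every probe set abundant. For RPS6, a ribosomal protein of the small subunit, the brightest of 4 probe sets read 64024, 43961 and 38274 and the dimmest 3.89, 5.47 and 2.34. The transcription factor gene BTF3, the ribosomal stalk gene RPLP1, CNOT7 of the CCR4-NOT complex, the cyclophilin PPIA and HNRNPD had the other large gaps between probe sets. Of the highest 100 genes 34 rested on _x_at probe sets and 43 on _s_at, types that can bind more than 1 transcript. HUWE1, a ubiquitin ligase named after its values were seen, held rank 53 by an _x_at probe set at 45261, 31259 and 27183, but its other probe sets read at most 4176. The mean over all probe sets of a gene gave 2678 abundant genes.

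Genes abundant, moderate or below the median in untreated cells largely kept their band in the treated groups, those of the low and near-median bands less so. The comparison uses the same probe sets and no test, since the genes were chosen on the control arrays. Of the 5341 genes abundant without treatment, 4911 (91.9%) were abundant in HSF-6(8) cells given butyrate and DZNep and 5012 (93.8%) in HSF-6(S9) cells given both. The others were moderate, except 1 gene that was low in HSF-6(S9). Of 5148 genes below the median, 4499 and 4566 were below it there too, and 0 were abundant in either group. The moderate band kept 88.6% of its genes in treated HSF-6(8) and 85.1% in treated HSF-6(S9) cells. For the same 2 groups the near-median band kept 72.9% and 66.3% and the low band 65.4% and 59.4%. These 2 bands were also the least stable among the 3 untreated arrays. There 51.5% of near-median and 33.5% of low genes were in that band on each array. MIR302B averaged 38694 ± 14723, 29793 ± 2412 and 33750 ± 10795 (SD, n = 3) in the untreated group, the treated HSF-6(8) group and the treated HSF-6(S9) group, whose values overlap. LIN28A averaged 28375 ± 6855, 24478 ± 2128 and 29974 ± 7874 in the same order. SOX2 averaged 23471 ± 3435, 20727 ± 4277 and 27356 ± 9184, and DNMT3B 25015 ± 5133, 25889 ± 1615 and 28912 ± 10059. NANOG had lower means in the treated groups, with 8772 ± 259.9, 6477 ± 2136 and 5651 ± 1179. Its treated HSF-6(S9) values (6145, 6503 and 4306) all lay under the untreated ones. In treated HSF-6(8) cells NANOG read 5605, 4915 and 8911. This difference was not tested.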

How the data were processed

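RNA of 9 samples was measured on Affymetrix arrays. The authors deposited MAS5 signal intensity values on a linear scale for 54675 probe sets, made with Affymetrix Expression Console and MAS5 per the submitters' processing notes. Software versions and the scaling target were not given in the sources used here. Bands and levels use only the 3 untreated HSF-6(8) arrays, grouped by title, and precision is limited by this number of arrays. Left out were 62 control, 1801 several-gene and 11721 unnamed probe sets. Names come from the platform annotation, updated by Entrez identifier through RefSeq (41037 of 41091 probe sets matched and 54 kept the older name).

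Each signal was divided by its array median and taken to log2, with nothing added, using Python 3.11.15, numpy 2.4.6 and pandas 2.3.3. The banding was tested on simulated data. No contrast was tested and no p-value was computed. The members and gene lists were chosen with earlier results of these data known. Named genes are the 4 markers, the 25 highest genes, the 4 highest of each list and the 2 lowest of regulator lists, the 6 abundant and 4 moderate genes with the largest range, the 5 of median rank, those at the band limits and the 6 with the largest gaps between probe sets. Further genes are said to be named after their values were seen. Y-linked genes and XIST are not reported. Alternatives were an added constant, the mean of probe sets, no _x_at probe sets, quantile normalization, a filter on low values, other limits and leaving out each array.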

Additional observations from a re-analysis of the deposited data

How the results depend on the processing

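The size of the bands depended on how dim values and several probe sets were handled. With 64 added to each value, 3189 genes were abundant, 9372 near the median and 137 below it. With the mean of all probe sets of a gene, 2678 were abundant and 2201 low, and lists in which most members were abundant numbered 11 of 48, against 19 with the highest probe set. With only probe sets above the median on every array, 900 genes were near the median and 0 below it, which follows from that filter. Limits of 12 and 24 times the median gave 6287 and 3919 abundant genes. With each array left out in turn, abundant genes numbered 5162 to 5471, moderate 4155 to 4273, low 1470 to 1504, near the median 3632 to 3817 and below it 4881 to 5131. Of 275 named genes, 20 changed band with 16 added, 76 with 64 added, 95 with the mean of probe sets and 3 under quantile normalization. No paired analysis was possible because the result comes from no test. Near and below the array median, signals lay in the range of olfactory receptors, and levels there have no firm order.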
